A study of Mus musculus with 12 samples.

Results

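The 36 genes described here make or control the protein-folding machinery of the endoplasmic reticulum (ER) and the unfolded protein response. They were chosen by name, as chaperones, folding enzymes, stress sensors, degradation components and translocon subunits, with genes of amino acid stress left out. Earlier results of these data were known when they were chosen. The array carried 64 probes named for 35 of them, and 29 genes had a probe detected on enough arrays to be tested, among 9100 tested genes of 19057 named ones. The cells were MC38, a metastatic mouse colon cancer line syngeneic to C57BL/6 mice, in 3 groups of 4 arrays: cells that expressed the long isoform CEACAM1-L, cells that expressed the short isoform CEACAM1-S, and control cells devoid of CEACAM1. All 3 groups were cultured with selection antibiotics and were harvested after 72 h in medium with 10% serum. CEACAM1 is an adhesion receptor whose long isoform carries inhibitory tyrosine motifs in its cytoplasmic tail, and the short isoform lacks them. The labels do not say whether the 4 samples of a group were separate cultures, how the isoforms were introduced, or whether a line was 1 clone, so p-values measure the spread between these arrays, which need not be biological.

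Proteins bound for the cell surface or for secretion enter the ER through the Sec61 channel, receive sugars and disulfide bonds, and fold with the help of chaperones. When unfolded proteins accumulate, the sensors Ern1 (IRE1), Eif2ak3 (PERK) and Atf6 start the unfolded protein response. Atf6 and the transcription factor Xbp1, whose messenger RNA is spliced by Ern1, raise the transcription of chaperone and degradation genes, many of them through a promoter motif called the ER stress response element (ERSE).

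Between 14717 and 16071 of 45281 probes were detected per array, at a detection p-value under 0.05, and the number of arrays limits the precision. Deviations of these same levels from the group means split the 12 arrays into sets A and B, each with 2 arrays of every group. The sets were read from these data and not from a label. The highest intensities were 30290 to 40614 units in set A and 17443 to 27138 units in set B. Of the 4 Ceacam1 probes, 2 were detected on 4 of 4 CEACAM1-L, 4 of 4 CEACAM1-S and 0 of 4 control arrays, 1 on all 12 arrays and 1 on none. The probe detected on all 12 arrays averaged 6.55 log2 units in CEACAM1-L, 8.33 in CEACAM1-S and 4.92 in control cells, so it read highest in the S line, and its part in any difference between the lines was not tested. Of 10 colon epithelial markers Krt8 was detected on every array, whereas 5 to 6 of the 10, depending on the group, were detected on none. Of 10 goblet and Paneth cell markers, the secretory cells of the gut, 8 or 9 were detected on no array of a group, and their summed signal was 316 to 335 units in CEACAM1-L, 318 to 322 in CEACAM1-S and 309 to 330 in control cells. Such sums are of normalized signal, unlike the raw intensities above, and run over every probe of a list. Undetected probes are included, so where most genes of a list were undetected the sum is mostly floor signal. For 6 plasma cell markers with a probe, another cell type rich in ER, the summed signal was 322 to 358 units in CEACAM1-L, 260 to 307 in CEACAM1-S and 270 to 294 in control cells, with Sdc1 alone detected on every array and higher in CEACAM1-L than in control cells. Of 7 fibroblast markers 3 were tested, and their list summed to 676 to 785 units in CEACAM1-L, 525 to 635 in CEACAM1-S and 473 to 544 in control cells. Pdgfra and Pdgfrb were higher in CEACAM1-L and Col1a1 in CEACAM1-S than in control cells. The endothelial markers summed to 241 to 263, 248.95 to 271 and 289 to 356 units in CEACAM1-L, CEACAM1-S and control cells, with Flt1 and Cdh5 of 4 tested lower in both lines. The leukocyte markers summed to 448 to 549, 409 to 438 and 500.2 to 563 units in the same 3 groups, with Cd14 of 2 tested lower in CEACAM1-S, as was Krt8. The part of these markers in the results was not tested. In bulk samples fewer cells of a type and less RNA per cell cannot be told apart.

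Promoter windows of 250 bases before to 50 after the annotated gene start were on hand for 30 of the 36 genes, taken from RefSeq on mouse build GRCm38.p6. They were searched on both strands for exact matches to the ERSE, spelled as CCAAT, 9 bases of any kind and CCACG, and to the related ERSE-II, spelled as ATTGG, 1 base of any kind and CCACG. The ERSE occurred in 9 of these 30 genes and in 39 of 32851 promoters of the table, or 0.119%; the members were picked as unfolded protein response genes, so they are no independent sample of promoters. The matches are shown because chaperones of several families share them, written in the direction of the motif with its fixed bases in capitals and the 9 spacer bases in lower case:
Hspa5: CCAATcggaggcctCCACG
Hsp90b1, farther from the start: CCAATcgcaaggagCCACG
Hsp90b1, nearer to the start: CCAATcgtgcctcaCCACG
Dnajc3: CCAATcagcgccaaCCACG
Creld2: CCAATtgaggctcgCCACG
Calr: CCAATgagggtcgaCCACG
Canx: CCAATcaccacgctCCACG
Pdia6: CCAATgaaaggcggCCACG
Syvn1: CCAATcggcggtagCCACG
Derl3: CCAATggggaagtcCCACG
The ERSE-II was found in Dnajb11 (ATTGGcCCACG) and Herpud1 (ATTGGgCCACG), and in 12 of 32851 promoters (0.0365%). The UPRE core TGACGTGG, another Atf6 and Xbp1 motif, was found in 0 of the 30 genes and in 0.676% of all promoters, which says only that these letters are not in these windows. A plain CCAAT box, which every ERSE contains, was present in 24 of the 30 genes and in 37.4% of all promoters.

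For the 4 genes that held an ERSE and were higher in both CEACAM1 lines, the 250 bases before the start are given 5′ to 3′ on the strand of the gene, with the ERSE in capitals. They are chr8:84846932-84847181 on the minus strand for Calr, chr15:88819396-88819645 on the plus strand for Creld2, chr14:118937682-118937931 on the plus strand for Dnajc3 and chr12:17266339-17266588 on the plus strand for Pdia6. In Calr and Creld2 the motif lies on the opposite strand, so its capitals read as the reverse complement of the lines above.
Calr: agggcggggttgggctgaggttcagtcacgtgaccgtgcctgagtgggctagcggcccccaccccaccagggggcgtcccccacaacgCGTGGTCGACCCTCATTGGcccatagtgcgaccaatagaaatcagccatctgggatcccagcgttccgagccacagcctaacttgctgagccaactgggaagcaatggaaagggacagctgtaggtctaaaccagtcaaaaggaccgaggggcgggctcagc
Creld2: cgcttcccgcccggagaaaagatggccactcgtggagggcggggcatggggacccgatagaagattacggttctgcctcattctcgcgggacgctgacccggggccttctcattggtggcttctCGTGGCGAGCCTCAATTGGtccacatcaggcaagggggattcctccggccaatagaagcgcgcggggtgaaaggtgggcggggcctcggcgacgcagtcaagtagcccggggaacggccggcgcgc
Dnajc3: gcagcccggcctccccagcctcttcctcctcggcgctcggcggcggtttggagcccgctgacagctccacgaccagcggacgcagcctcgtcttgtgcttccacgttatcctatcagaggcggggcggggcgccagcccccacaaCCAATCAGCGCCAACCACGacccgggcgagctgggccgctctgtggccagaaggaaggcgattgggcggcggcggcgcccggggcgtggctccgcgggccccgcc
Pdia6: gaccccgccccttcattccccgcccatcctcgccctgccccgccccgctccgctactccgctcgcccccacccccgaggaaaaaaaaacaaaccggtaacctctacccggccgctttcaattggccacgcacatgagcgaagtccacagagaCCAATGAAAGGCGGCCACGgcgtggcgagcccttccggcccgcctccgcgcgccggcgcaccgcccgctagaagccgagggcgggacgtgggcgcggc

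Relative to control cells, 9 of the 29 tested genes of this set passed as higher in both CEACAM1 lines, among them chaperones, disulfide isomerases, a degradation gene and a glycosylation gene. How many of all tested genes were higher in both lines was not counted, so this number has no measure beside it. Levels are given in log2 units of background-corrected, quantile-normalized signal, differences are log2 differences with the standard error (SE) of the limma fit, and a gene passed at a Benjamini-Hochberg adjusted p under 0.05 over all 9100 genes. In CEACAM1-L, 11 of the 29 tested genes were higher than in control cells, 2 were lower and 16 did not pass, where 36.2% of all tested genes passed in either direction and 18.2% were higher. In CEACAM1-S, 19 were higher, 1 was lower and 9 did not pass, against 23.6% of all genes passing and 12.2% higher. The set was chosen with earlier results of these data known, so these shares are no independent test of it. Groups did not overlap for 11 of the 29 genes in CEACAM1-L against control (32.6% of all genes) and for 16 in CEACAM1-S against control (23.5%). The median log2 difference of the 29 genes was 0.26 in CEACAM1-L and 0.42 in CEACAM1-S, against -0.0077 and -0.0091 for all tested genes. These 2 comparisons share their control arrays, so calls in both are not independent for any gene, and they are given side by side. Between the lines, CEACAM1-L had 1 gene higher and 8 lower than CEACAM1-S, with 20 not passing, where 26.2% of all genes passed and 12.9% were lower, 9 genes did not overlap (25.8% of all genes), and the median was -0.17 against -0.016 for all genes.

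The calls depended on the scaling of the arrays. Scaled to a common median instead of quantile-normalized, 0 of the 29 genes passed in CEACAM1-L against control, 4 passed in CEACAM1-S against control (Sdf2l1, Selenos, Pdia6 and Hyou1) and 0 passed between the lines, while all-gene counts fell to 637, 276 and 293, against 3290, 2148 and 2382. The median SE of the 29 genes was then 0.33 log2 units, against 0.11. Under that scaling the all-gene median shifted to -0.11, -0.03 and -0.11, and 39.6% of the genes passing in CEACAM1-L against control were higher, against 50.2%. Relative to those shifts the medians of the 29 genes were 0.21, 0.42 and -0.20. The median of the 29 genes was 0.28 in set A and 0.21 in set B for CEACAM1-L against control, 0.44 and 0.43 for CEACAM1-S against control, and -0.22 and -0.11 between the lines.

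**Figure D1:**
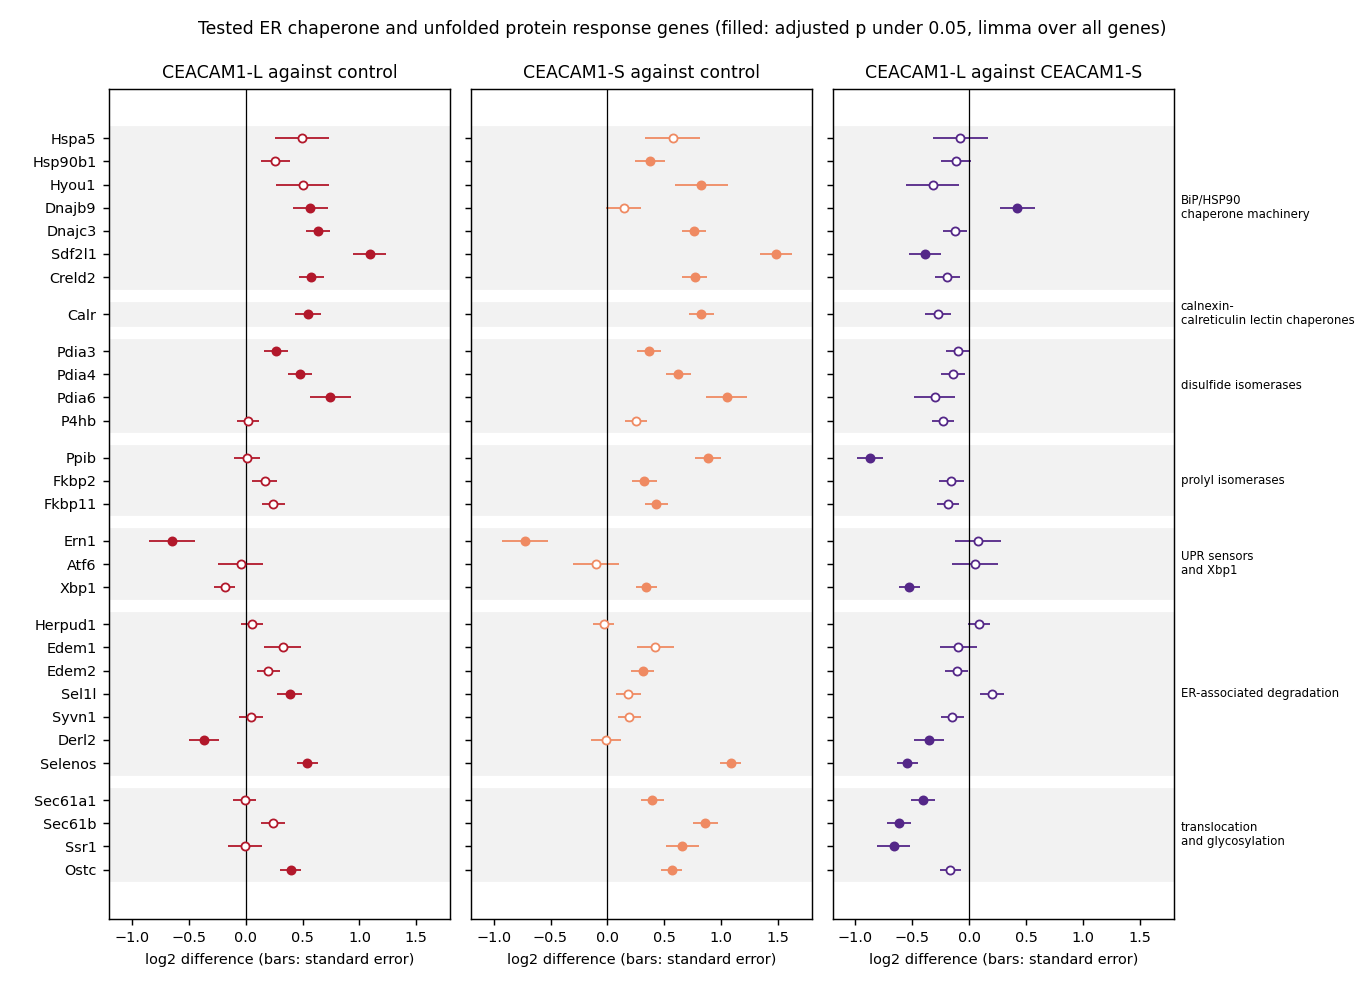
Log2 differences (points, with the SE of the fit as bars) of the 29 tested genes, grouped by role, for CEACAM1-L against control, CEACAM1-S against control and CEACAM1-L against CEACAM1-S. Filled points passed an adjusted p of 0.05: 13 genes in the left panel, 20 in the middle panel and 9 in the right panel.

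**Figure D2:**
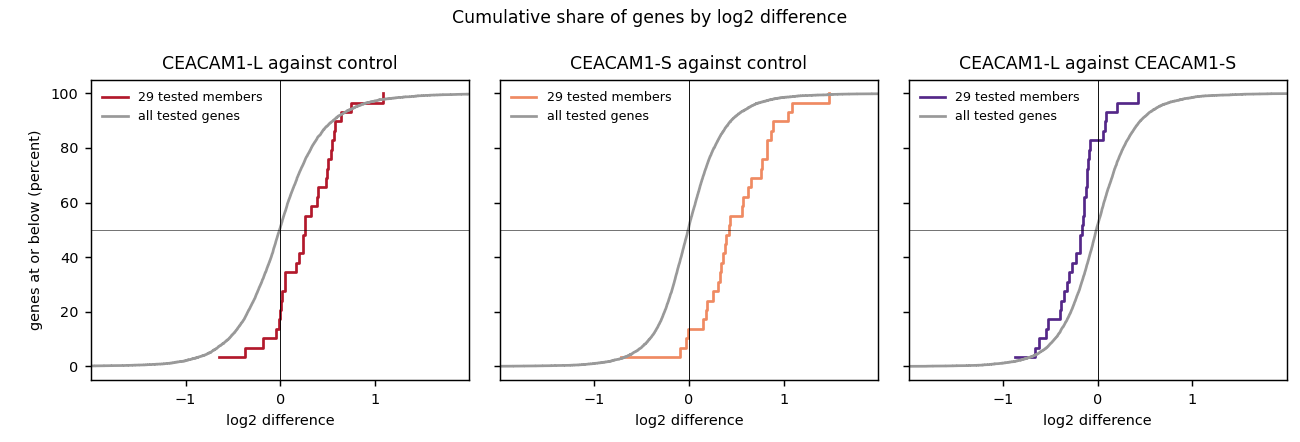
Cumulative percent of genes by log2 difference, for the 29 tested genes (coloured) and all 9100 tested genes (grey). The coloured curve crosses the middle line at 0.26 in CEACAM1-L against control, at 0.42 in CEACAM1-S against control and at -0.17 between the lines, against values near 0 for all genes.

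Among the chaperones built around Hspa5 and Hsp90b1, 4 of 7 tested genes were higher in CEACAM1-L and 5 of 7 in CEACAM1-S than in control cells. Their median log2 difference was 0.57 in CEACAM1-L and 0.76 in CEACAM1-S. The largest difference of the set against control in both lines was that of Sdf2l1, a partner of ER-resident DnaJ proteins. Its level was 8.44, 8.25, 8.26 and 8.75 log2 units on the CEACAM1-L arrays, 9.05, 8.57, 8.63 and 9.02 on the CEACAM1-S arrays, and 7.11, 7.51, 7.30 and 7.43 on the control arrays. Every CEACAM1 array lay above every control array, and the arrays of the L and S lines overlapped. The log2 difference was 1.09 ± 0.14 (SE, 2.13-fold, adjusted p = 1.58e-06, limma) in CEACAM1-L and 1.48 ± 0.14 (2.79-fold, adjusted p = 2.74e-08) in CEACAM1-S.

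Dnajc3 (P58IPK), a co-chaperone of Hspa5, varied little within the CEACAM1-L and control groups and more within CEACAM1-S. It read 8.82, 8.85, 8.84 and 8.86 log2 units on the CEACAM1-L arrays, 8.92, 8.76, 9.02 and 9.15 on the CEACAM1-S arrays, and 8.19, 8.19, 8.23 and 8.21 on the control arrays. The SD over 4 arrays was 0.02 in CEACAM1-L, 0.17 in CEACAM1-S and 0.01 in control cells, and neither CEACAM1 group overlapped the control group. Dnajc3 was higher by 0.64 ± 0.11 on the log2 scale in CEACAM1-L (limma adjusted p = 4.14e-05) and by 0.76 ± 0.11 in CEACAM1-S (adjusted p = 7.99e-06).

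Creld2, an ER-resident protein with disulfide isomerase activity, gave 9.51, 9.80, 9.52 and 9.86 log2 units in CEACAM1-L, 10.00, 9.74, 9.75 and 9.97 in CEACAM1-S, and 9.01, 9.24, 9.02 and 9.11 in control cells. Both lines lay wholly above control, by 0.58 ± 0.11 in CEACAM1-L (limma adjusted p = 0.00015) and by 0.77 ± 0.11 in CEACAM1-S (adjusted p = 7.89e-06). A further Creld2 probe gave log2 differences of 0.50 and 0.80, which also passed. Further probes were read in a fit over 16330 probes, of which 31.8% passed in CEACAM1-L against control, 19.1% in CEACAM1-S against control and 22.0% between the lines.

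Dnajb9 (ERdj4), a DnaJ protein known as a target of Xbp1 that also holds Ern1 inactive, had a different order. Its level was 7.68, 7.77, 8.02 and 7.62 log2 units in CEACAM1-L, 7.24, 7.31, 7.38 and 7.45 in CEACAM1-S, and 7.53, 6.77, 7.16 and 7.36 in control cells. The L arrays stood above all others, and the S arrays fell within the control range. Dnajb9 was higher in CEACAM1-L than in control cells by 0.57 ± 0.15 (limma adjusted p = 0.00533) and than in CEACAM1-S by 0.42 ± 0.15 (adjusted p = 0.0451), whereas the difference between CEACAM1-S and control cells was 0.14 ± 0.15 (adjusted p = 0.557). It was the only tested gene of the set that was higher in L than in S. That call was lost without CEACAM1-L replicate 1, 2 or 3, without any 1 of the 4 CEACAM1-S arrays, and without control replicate 3, with adjusted p up to 0.153. It was also lost with the mean of its kept probes (0.30, adjusted p = 0.126). The dimmer kept probe averaged 5.16 log2 units in CEACAM1-L, 4.98 in CEACAM1-S and 4.82 in control cells. It was detected on 4 of 4 CEACAM1-L, 3 of 4 CEACAM1-S and 2 of 4 control arrays. The L against control difference was 0.93 in array set A and 0.20 in set B.

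Hspa5 (BiP), the chaperone that binds the luminal domains of the sensors, gave 5.53, 4.96, 5.02 and 5.68 log2 units on the CEACAM1-L arrays, 4.88, 5.99, 5.22 and 5.41 on the CEACAM1-S arrays, and 5.51, 4.47, 4.61 and 4.63 on the control arrays. Its only probe was detected on 4 of 4 CEACAM1-L, 4 of 4 CEACAM1-S and 1 of 4 control arrays, so the gene entered the test through the CEACAM1 lines. Control replicate 1 lay inside the range of both lines, and the other 3 control arrays lay below every CEACAM1 array. The log2 difference was 0.50 ± 0.24 in CEACAM1-L (limma adjusted p = 0.114) and 0.57 ± 0.24 in CEACAM1-S (adjusted p = 0.0905), and neither passed. Without control replicate 1 both passed, at 0.73 (adjusted p = 0.0169) in CEACAM1-L and 0.81 (adjusted p = 0.0137) in CEACAM1-S. Hspa5 also passed in CEACAM1-S without CEACAM1-S replicate 1, at 0.74 (adjusted p = 0.0399).

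Hsp90b1 (GRP94), the ER member of the HSP90 family, also had a high control replicate 1. The values were 10.99, 11.09, 10.80 and 11.28 log2 units in CEACAM1-L, 11.12, 11.26, 11.03 and 11.20 in CEACAM1-S, and 11.30, 10.67, 10.52 and 10.63 in control cells. Control replicate 1 was above every other array and the remaining 3 control arrays were below every CEACAM1 array. The difference was 0.38 ± 0.13 in CEACAM1-S (limma adjusted p = 0.0354) and 0.26 ± 0.13 in CEACAM1-L (adjusted p = 0.122). Without control replicate 1 the CEACAM1-L difference was 0.43 (adjusted p = 0.00197), and the CEACAM1-S call was lost without CEACAM1-S replicate 1, 2 or 4 or control replicate 2, 3 or 4, with adjusted p up to 0.138.

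Hyou1 (GRP170), a nucleotide exchange factor for Hspa5, was higher in CEACAM1-S by 0.82 ± 0.23 (limma adjusted p = 0.0111), against 0.50 ± 0.23 in CEACAM1-L (adjusted p = 0.0972). Its probe was detected on 4 of 4 CEACAM1-L, 4 of 4 CEACAM1-S and 2 of 4 control arrays, so it too entered through the CEACAM1 lines, and without CEACAM1-S replicate 4 the S difference was 0.67 (adjusted p = 0.0533). The remaining members of the group had no test: the Manf probe was detected on 0 of 12 arrays, and Dnajb11 had 0 probes under the annotation used.

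**Figure D3:**
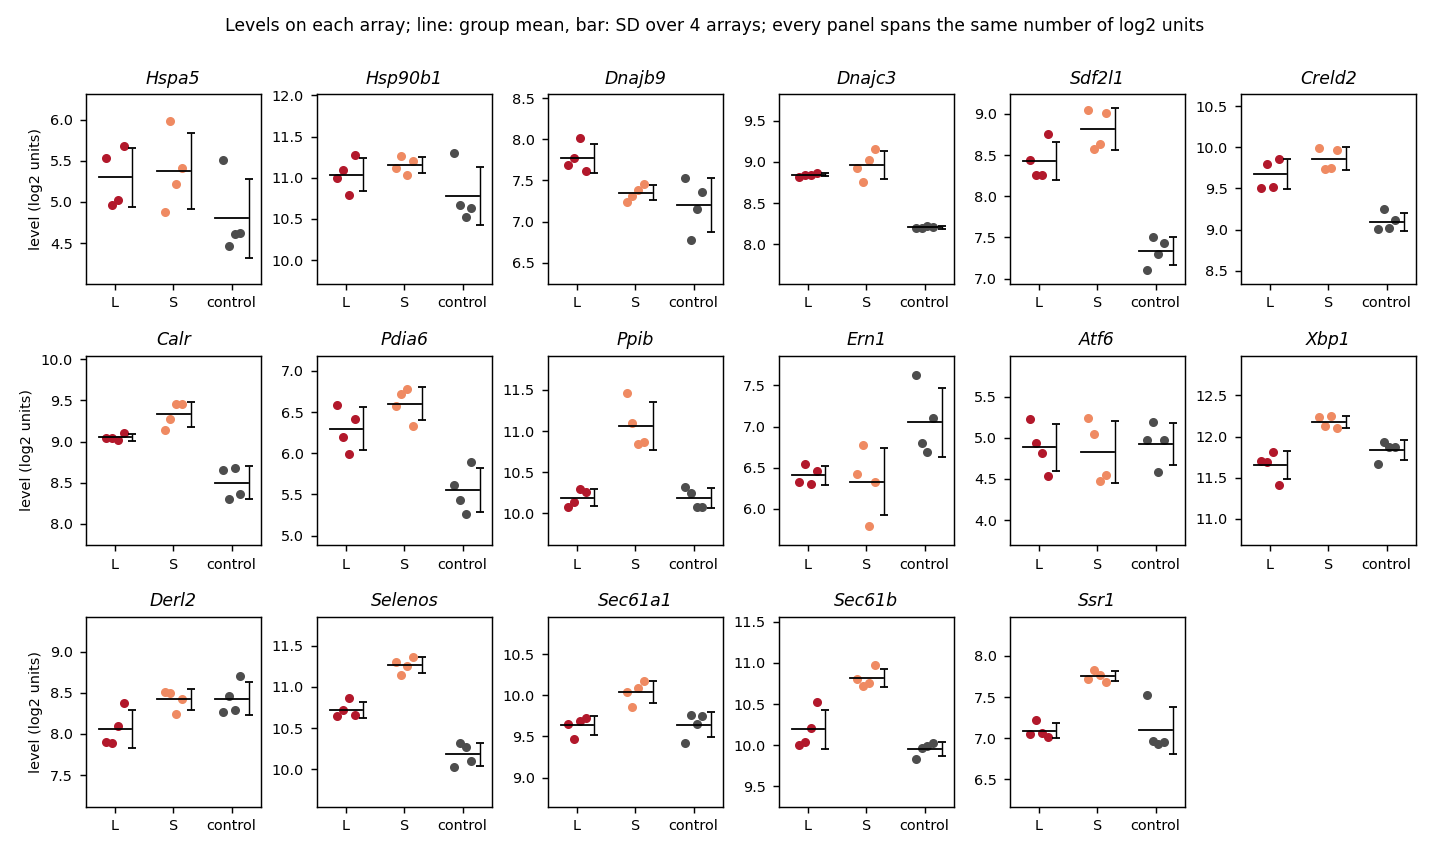
Level in log2 units on each of the 4 arrays of CEACAM1-L (L), CEACAM1-S (S) and control cells for 17 genes, with the group mean as a line and the SD as a bar. In Sdf2l1, Dnajc3, Creld2, Calr, Pdia6 and Selenos all 8 CEACAM1 arrays lie above all 4 control arrays, and in Ppib, Xbp1, Sec61b, Sec61a1 and Ssr1 the S arrays stand apart from both other groups.

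The lectin chaperone calreticulin and 3 of 4 disulfide isomerases were higher in both lines. Calr, which holds newly made glycoproteins in the ER, read 9.04, 9.05, 9.01 and 9.11 log2 units in CEACAM1-L, 9.13, 9.27, 9.45 and 9.46 in CEACAM1-S, and 8.66, 8.30, 8.68 and 8.37 in control cells. The 3 groups did not overlap, in the order S, L and control. The difference was 0.55 ± 0.11 in CEACAM1-L (limma adjusted p = 0.000414) and 0.83 ± 0.11 in CEACAM1-S (adjusted p = 5.55e-06), and -0.28 ± 0.11 between L and S did not pass (adjusted p = 0.0742). The probe of its membrane-bound relative Canx was detected on 0 of 12 arrays.

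Pdia6 (P5), a disulfide isomerase that limits Ern1 signalling, had 6.59, 6.19, 5.99 and 6.42 log2 units on the CEACAM1-L arrays, 6.58, 6.72, 6.78 and 6.33 on the CEACAM1-S arrays, and 5.62, 5.44, 5.27 and 5.89 on the control arrays. All 8 CEACAM1 arrays were above the 4 control arrays, and the L and S arrays overlapped. The log2 difference was 0.74 ± 0.18 in CEACAM1-L (limma adjusted p = 0.002) and 1.05 ± 0.18 in CEACAM1-S (adjusted p = 0.000105), and a further probe gave 1.03 and 0.89. Pdia4 (ERp72) was higher by 0.48 ± 0.11 in CEACAM1-L (adjusted p = 0.000963), and by 0.62 ± 0.11 in CEACAM1-S (adjusted p = 0.000103). Pdia3 (ERp57), the isomerase that works with calreticulin, was higher by 0.27 ± 0.10 in CEACAM1-L (adjusted p = 0.0481), and by 0.36 ± 0.10 in CEACAM1-S (adjusted p = 0.0116). The L call of Pdia3 was lost without CEACAM1-L replicate 2, 3 or 4, CEACAM1-S replicate 1, 3 or 4 or control replicate 3 or 4, and the difference was 0.13 without control replicate 4. The S call was lost without control replicate 4 (0.23, adjusted p = 0.0593). P4hb, the founding disulfide isomerase, gave 0.02 ± 0.09 in CEACAM1-L and 0.25 ± 0.09 in CEACAM1-S (adjusted p = 0.89 and 0.054) and did not pass in either. In CEACAM1-S it passed without CEACAM1-S replicate 2 or 3 or control replicate 3 (limma adjusted p = 0.0289, 0.0431 and 0.0313).

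The 3 prolyl isomerases, which turn peptide bonds at proline, passed in CEACAM1-S and not in CEACAM1-L against control. Ppib (cyclophilin B) read 10.08, 10.14, 10.29 and 10.26 log2 units in CEACAM1-L, 11.47, 11.10, 10.84 and 10.86 in CEACAM1-S, and 10.32, 10.25, 10.08 and 10.08 in control cells. Every S array lay above all L and control arrays, which overlapped each other. Ppib was higher in CEACAM1-S than in control cells by 0.88 ± 0.11 (1.84-fold, limma adjusted p = 2.6e-06) and lower in L than in S (log2 difference -0.87 ± 0.11, adjusted p = 3.18e-06). Between CEACAM1-L and control cells its difference was 0.01 ± 0.11, with a 95% interval of -0.23 to 0.24. Fkbp11 and Fkbp2, isomerases of the FKBP family, were higher in CEACAM1-S by 0.43 ± 0.10 (adjusted p = 0.00222) and 0.32 ± 0.11 (adjusted p = 0.0352). In CEACAM1-L they gave 0.24 ± 0.10 and 0.17 ± 0.11 (adjusted p = 0.0585 and 0.256). Neither passed between L and S (adjusted p = 0.18 and 0.333), so of the 3 only Ppib separated the lines. The Fkbp2 call in CEACAM1-S was lost without CEACAM1-S replicate 1, 3 or 4 or control replicate 1, 2 or 3, with adjusted p up to 0.14. A dimmer Fkbp2 probe gave 0.20 in CEACAM1-S (adjusted p = 0.609) and 0.47 in CEACAM1-L (adjusted p = 0.115), the opposite order.

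Ppib and Hyou1 lie on chromosome 9. Of 508 tested genes of that chromosome, 47.2% were higher in CEACAM1-S than in control cells, with a median log2 difference of 0.37, and 37.2% were lower in L than in S, with a median of -0.29. On the other autosomes and X the share higher in CEACAM1-S was between 7.02% and 19.4%. Of the 27 tested genes of the set on other chromosomes, 17 were higher and 1 was lower in CEACAM1-S against control, with a median of 0.39. On chromosome 5, where 42.2% of 625 tested genes were higher in CEACAM1-L than in control cells, the set has 0 tested genes. The part of gene position in these results was not tested.

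Of the sensors, Ern1 passed as lower in both lines by its brightest probe, Atf6 passed in neither and Eif2ak3 was not measured. Ern1, the sensor kinase and nuclease that splices Xbp1, gave 6.33, 6.54, 6.30 and 6.46 log2 units on the CEACAM1-L arrays, 6.43, 6.77, 5.79 and 6.33 on the CEACAM1-S arrays, and 7.63, 6.80, 6.69 and 7.10 on the control arrays. All L arrays were below all control arrays, CEACAM1-S replicate 2 lay within the control range, and control replicate 1 was the highest of the 12. Ern1 was lower than in control cells, with a log2 difference of -0.65 ± 0.20 in CEACAM1-L (limma adjusted p = 0.0145) and -0.72 ± 0.20 in CEACAM1-S (adjusted p = 0.0105). Without control replicate 1 the differences were -0.45 (adjusted p = 0.0825) and -0.53 (adjusted p = 0.0584), and the S call was also lost without CEACAM1-S replicate 3 (-0.54, adjusted p = 0.0597). Its 2 dimmer probes did not pass, with -0.07 and 0.18 in CEACAM1-L and -0.44 and -0.21 in CEACAM1-S, so the probes of Ern1 disagree, and with their mean the L call was lost (-0.18, adjusted p = 0.373) while the S difference was -0.46 (adjusted p = 0.0268). The difference was -0.32 in array set A and -0.97 in set B for CEACAM1-L, and -0.37 and -1.08 for CEACAM1-S.

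Atf6, the sensor cut in the Golgi to free a transcription factor, had 5.23, 4.94, 4.82 and 4.54 log2 units in CEACAM1-L, 5.24, 5.05, 4.47 and 4.55 in CEACAM1-S, and 4.97, 5.19, 4.58 and 4.97 in control cells. The 3 groups overlapped, and the probe was detected on 3 of 4 CEACAM1-L, 2 of 4 CEACAM1-S and 3 of 4 control arrays. The differences against control were -0.05 ± 0.20 in CEACAM1-L and -0.10 ± 0.20 in CEACAM1-S (limma adjusted p = 0.893 and 0.774). Eif2ak3, the sensor kinase that slows translation, had 2 probes detected on 0 of 12 arrays, so its level was not measured.

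Xbp1 separated the lines. It read 11.70, 11.69, 11.81 and 11.41 log2 units in CEACAM1-L, 12.24, 12.13, 12.25 and 12.10 in CEACAM1-S, and 11.66, 11.94, 11.88 and 11.87 in control cells. All S arrays lay above all control and L arrays, and the L arrays overlapped the control arrays from below. Xbp1 was higher in CEACAM1-S than in control cells by 0.34 ± 0.09 (limma adjusted p = 0.00825) and lower in L than in S (log2 difference -0.53 ± 0.09, adjusted p = 0.000142). For CEACAM1-L against control it was -0.18 ± 0.09 (adjusted p = 0.125), and -0.24 (adjusted p = 0.0477) without control replicate 1. Whether the probe separates spliced from unspliced Xbp1 was not analysed here.

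In ER-associated degradation, which moves misfolded proteins to the proteasome, 2 of 7 tested genes were higher and 1 was lower in CEACAM1-L, and 2 were higher and 0 lower in CEACAM1-S. Selenos, a selenoprotein that anchors the p97 ATPase at the ER membrane, had 10.65, 10.72, 10.87 and 10.66 log2 units on the CEACAM1-L arrays, 11.31, 11.14, 11.25 and 11.37 on the CEACAM1-S arrays, and 10.03, 10.32, 10.27 and 10.10 on the control arrays. The 3 groups did not overlap. It was higher by 0.54 ± 0.09 in CEACAM1-L (limma adjusted p = 5.51e-05) and by 1.08 ± 0.09 in CEACAM1-S (2.12-fold, adjusted p = 3.33e-09), and L was lower than S by a log2 difference of -0.54 ± 0.09 (adjusted p = 9.79e-05). A further probe gave 0.98 in CEACAM1-S and -0.78 between the lines, with the same calls, and 0.20 in CEACAM1-L (adjusted p = 0.205).

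Derl2, a membrane protein of the degradation channel, gave 7.90, 7.88, 8.09 and 8.37 log2 units in CEACAM1-L, 8.51, 8.50, 8.24 and 8.42 in CEACAM1-S, and 8.27, 8.46, 8.28 and 8.70 in control cells. CEACAM1-L replicate 4 overlapped both other groups and the remaining 3 L arrays were below them. It was lower in L than in control cells (log2 difference -0.37 ± 0.13, limma adjusted p = 0.0321) and than in CEACAM1-S (-0.36 ± 0.13, adjusted p = 0.0489). A further probe gave -0.40 and -0.66 and passed in both (limma adjusted p = 0.0465 and 0.00252). The losses that follow are those of the brighter probe. The call against control was lost without CEACAM1-L replicate 1, 2 or 3 or control replicate 2 or 4 (adjusted p up to 0.125). The call against CEACAM1-S was lost without CEACAM1-L replicate 1, 2 or 3, CEACAM1-S replicate 1, 2 or 4 or control replicate 2 or 3 (adjusted p up to 0.149).

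Sel1l, the scaffold of the Hrd1 ubiquitin ligase, was higher in CEACAM1-L by 0.39 ± 0.11 (limma adjusted p = 0.00641), against 0.18 ± 0.11 in CEACAM1-S (adjusted p = 0.243). The L call was lost when its kept probes were averaged (0.29, limma adjusted p = 0.0547). Its dimmer kept probe averaged 4.88 log2 units in CEACAM1-L, 4.52 in CEACAM1-S and 4.69 in control cells. That probe was detected on 3 of 4 CEACAM1-L, 0 of 4 CEACAM1-S and 2 of 4 control arrays. Edem2, a mannosidase that marks glycoproteins for disposal, was higher in CEACAM1-S by 0.31 ± 0.10 (adjusted p = 0.0261). That call was lost without CEACAM1-S replicate 1, 3 or 4 or control replicate 1 (adjusted p up to 0.111), and none of its 3 dimmer probes passed (-0.34 to 0.06). Herpud1, a stress-induced membrane protein, Syvn1 (Hrd1), the ligase itself, and Edem1 passed in none of the 3 comparisons. Their differences were 0.05, 0.05 and 0.33 in CEACAM1-L and -0.03, 0.19 and 0.42 in CEACAM1-S, with adjusted p of 0.0649 or more. A further Herpud1 probe, detected on 4 of 4 arrays of each group, gave 0.23 in CEACAM1-L and 0.29 in CEACAM1-S. It did not pass either (limma adjusted p = 0.0885 and 0.0522), and the 2 Herpud1 probes differ in sign in CEACAM1-S. The probes of Derl1 were detected on at most 1 of 12 arrays and that of Derl3 on 0, as was that of Ufm1, a ubiquitin-like modifier.

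All 4 tested genes of translocation and glycosylation were higher in CEACAM1-S than in control cells, 1 of 4 was higher in CEACAM1-L, and 3 of 4 were lower in L than in S. Their median log2 difference was 0.12 in CEACAM1-L and 0.61 in CEACAM1-S against control, and -0.51 between the lines. Sec61b, a small subunit of the Sec61 channel, read 10.01, 10.04, 10.21 and 10.52 log2 units in CEACAM1-L, 10.80, 10.72, 10.76 and 10.98 in CEACAM1-S, and 9.83, 9.96, 9.99 and 10.03 in control cells. All S arrays were above all L arrays, and L overlapped control. The difference was 0.86 ± 0.11 in CEACAM1-S (limma adjusted p = 1.21e-06), 0.24 ± 0.11 in CEACAM1-L (adjusted p = 0.0774) and -0.62 ± 0.11 between L and S (adjusted p = 0.000101). A further Sec61b probe gave 0.91, 0.04 and -0.86 and passed in the same 2 comparisons.

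Ssr1 (TRAP alpha), which helps some proteins through the channel, had 7.05, 7.22, 7.06 and 7.02 log2 units on the CEACAM1-L arrays, 7.72, 7.83, 7.77 and 7.69 on the CEACAM1-S arrays, and 7.53, 6.97, 6.93 and 6.96 on the control arrays. Every S array stood above the others, and control replicate 1 lay between S and the rest. Ssr1 was higher in CEACAM1-S than in control cells by 0.66 ± 0.15 (limma adjusted p = 0.00158) and lower in L than in S (-0.66 ± 0.15, adjusted p = 0.00138), while L against control gave -0.01 ± 0.15.

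Sec61a1, the pore subunit of the channel, gave 9.66, 9.47, 9.69 and 9.72 log2 units in CEACAM1-L, 10.04, 9.86, 10.09 and 10.17 in CEACAM1-S, and 9.42, 9.76, 9.65 and 9.74 in control cells. The S arrays again lay above all L and control arrays, which overlapped. The difference was 0.39 ± 0.10 in CEACAM1-S against control (limma adjusted p = 0.00603) and -0.40 ± 0.10 for L against S (adjusted p = 0.00469), and -0.01 ± 0.10 for L against control. Both calls were lost when the gene's kept probes were averaged, at 0.18 (adjusted p = 0.352) and -0.09 (adjusted p = 0.626). Ostc, a subunit of the oligosaccharyltransferase that attaches sugar chains, was higher in both lines, by 0.40 ± 0.09 in CEACAM1-L (adjusted p = 0.00126), and by 0.56 ± 0.09 in CEACAM1-S (adjusted p = 4.84e-05), and did not pass between them (adjusted p = 0.192).

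Over the 29 tested genes, 9 were higher in both lines against the shared control arrays: Sdf2l1, Dnajc3, Creld2, Calr, Pdia3, Pdia4, Pdia6, Selenos and Ostc. The matching counts over all tested genes were not made, for this and for the calls in 1 line alone. Another 10 passed as higher in CEACAM1-S alone, and of these Ppib, Xbp1, Sec61a1, Sec61b and Ssr1 also passed the direct test between L and S, whereas Hsp90b1, Hyou1, Fkbp2, Fkbp11 and Edem2 did not. Dnajb9 and Sel1l passed as higher in CEACAM1-L alone, and of these Dnajb9 passed the direct test. Sdf2l1 and Selenos, higher in both, were lower in L than in S, and the Sdf2l1 difference of -0.39 ± 0.14 (limma adjusted p = 0.0458) was lost without CEACAM1-L replicate 1, 2 or 3 or CEACAM1-S replicate 1 or 4 (adjusted p up to 0.163). It was -0.77 in array set A and -0.0049 in set B.

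Set against the promoter matches shown above, the ERSE was present in 4 of the 10 genes higher in CEACAM1-L that had a promoter, and in 5 of 16 higher in CEACAM1-S. Of 9 tested genes with a promoter that were not higher in CEACAM1-S, 2 held it, Hspa5 and Syvn1. Over all 25 tested genes with a promoter, 7 held it. The log2 differences of Calr, Creld2, Dnajc3 and Pdia6, the ERSE genes higher in both lines, were 0.55, 0.58, 0.64 and 0.74 in CEACAM1-L and 0.83, 0.77, 0.76 and 1.05 in CEACAM1-S. The other tested ERSE genes, Hspa5, Hsp90b1 and Syvn1, gave 0.50, 0.26 and 0.05 in CEACAM1-L and 0.57, 0.38 and 0.19 in CEACAM1-S. Of these only Hsp90b1 in CEACAM1-S passed. Sec61b, Selenos and Ppib, with differences of 0.86, 1.08 and 0.88 in CEACAM1-S, had no exact ERSE or ERSE-II in the window, and neither did Sdf2l1. A match is a description of the letters and not a bound site.

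**Figure D4:**
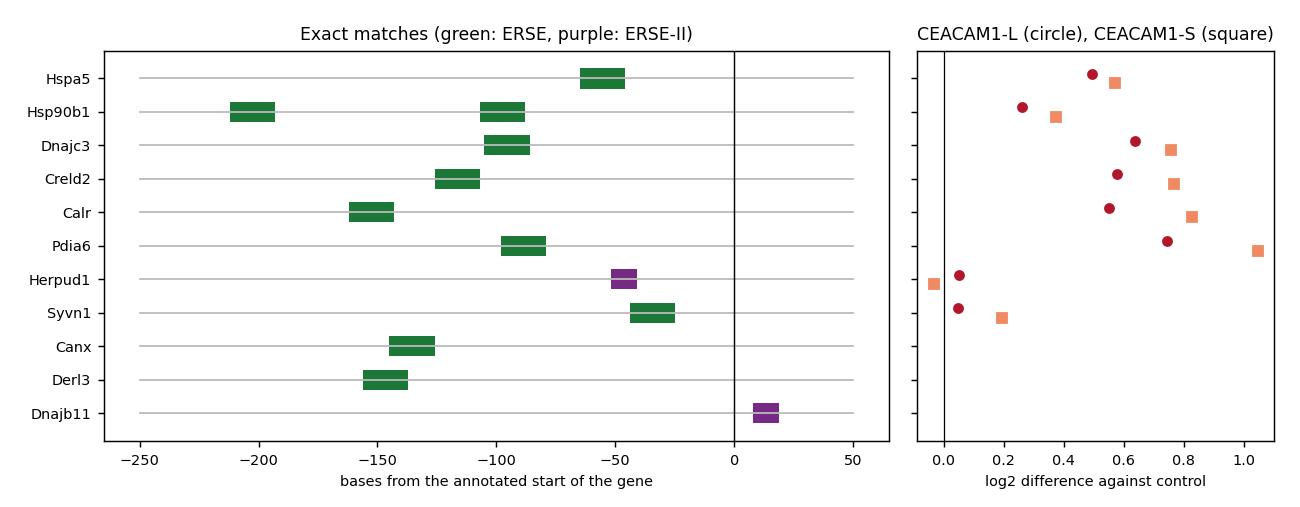
Left, position of exact ERSE (green) and ERSE-II (purple) matches, in bases from the annotated gene start, in the 11 genes that hold one; the matches begin between 212 bases before and 8 bases after the start. Right, log2 difference of the same genes against control in CEACAM1-L (circle) and CEACAM1-S (square); genes without points were not tested.

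Other genes of the folding and secretory pathway were read from lists by role. In the list of protein disulfide isomerases and oxidative folding, 7 of 16 tested genes were higher and 1 was lower in CEACAM1-L, and 8 were higher and 0 lower in CEACAM1-S, with median log2 differences of 0.23 and 0.37. The all-gene medians and shares given above are the measure for these lists. Ero1b, an oxidase that recharges the isomerases, was higher by 1.03 ± 0.18 in CEACAM1-L and 0.80 ± 0.18 in CEACAM1-S (limma adjusted p = 5.77e-05 and 0.00138). Txndc11, a thioredoxin-domain protein, was higher by 1.07 ± 0.20 in CEACAM1-S (adjusted p = 0.000235). Among other ER chaperones and prolyl isomerases 4 of 12 were higher and 1 lower in CEACAM1-L, 5 were higher and 0 lower in CEACAM1-S, with medians of 0.33 and 0.21.

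The translocon, signal peptidase and signal recognition particle genes outside the set had 5 of 19 higher and 1 lower in CEACAM1-L, 8 higher and 0 lower in CEACAM1-S, and 2 higher and 9 lower in L than in S, with medians of 0.03, 0.37 and -0.26. Srp9, a signal recognition particle subunit, was lower in L than in S by a log2 difference of -0.64 ± 0.12 (limma adjusted p = 0.00021), and Tram2, a translocon partner, was higher by 1.23 ± 0.18 (adjusted p = 1.27e-05). For N-glycosylation and the calnexin cycle, 4 of 25 were higher and 7 lower in CEACAM1-L, 9 higher and 0 lower in CEACAM1-S, and 3 higher and 12 lower in L than in S, with medians of -0.08, 0.19 and -0.26. Dpagt1, the first enzyme of the lipid-linked sugar pathway, had a log2 difference of -1.001 ± 0.10 between L and S (adjusted p = 6.67e-08), and Alg2, a mannosyltransferase of that pathway, -1.04 ± 0.14 (adjusted p = 5.05e-06). Of the 25 tested N-glycosylation genes, 5, Dpagt1 among them, lie on chromosome 9, and all 5 were lower in L than in S; of the 19 translocon genes 1 lies there.

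Genes of ER to Golgi traffic were higher in 9 of 25 and lower in 1 in CEACAM1-L, and higher in 8 and lower in 1 in CEACAM1-S, with Tmed10, a cargo receptor, higher by 1.00 ± 0.09 and 0.99 ± 0.09 (limma adjusted p = 7.33e-09 and 1.92e-08). The medians of that list were 0.21 and 0.30. Of further degradation components, 2 of 18 were higher and 1 lower in CEACAM1-L and 1 was higher and 1 lower in CEACAM1-S, with medians of 0.13 and 0.08. In the UFMylation list, 1 of 6 was higher and 1 lower in CEACAM1-L and 3 higher and 0 lower in CEACAM1-S, with medians of 0.21 and 0.29. Cytosolic and mitochondrial chaperones, which work outside the ER, had 3 of 21 higher and 1 lower in CEACAM1-L, and 2 higher and 2 lower in CEACAM1-S, with medians of -0.06 and -0.06.

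Unfolded protein response signalling genes outside the set went both ways, with 3 of 12 higher and 4 lower in CEACAM1-L and 3 higher and 1 lower in CEACAM1-S, and medians of 0.02 and 0.17. Ddit3 (CHOP), a stress transcription factor, averaged 11.39 log2 units in CEACAM1-L, 10.46 in CEACAM1-S and 9.95 in control cells, a difference of 1.45 ± 0.13 in CEACAM1-L and 0.52 ± 0.13 in CEACAM1-S (limma adjusted p = 2.25e-09 and 0.00344), and it was higher in L than in S by 0.93 ± 0.13 (adjusted p = 4.89e-06). Ppp1r15a (GADD34), a phosphatase subunit that restores translation, was lower than in control cells, with log2 differences of -1.16 ± 0.10 in CEACAM1-L and -0.92 ± 0.10 in CEACAM1-S (adjusted p = 2.97e-09 and 3.01e-07). Ddit3 was highest in CEACAM1-L. Of the 29 tested genes of the set, 1 was higher and 8 were lower in L than in S, and 20 did not pass. Of all tested genes 13.2% were higher and 12.9% lower in that comparison.

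**Figure D5:**
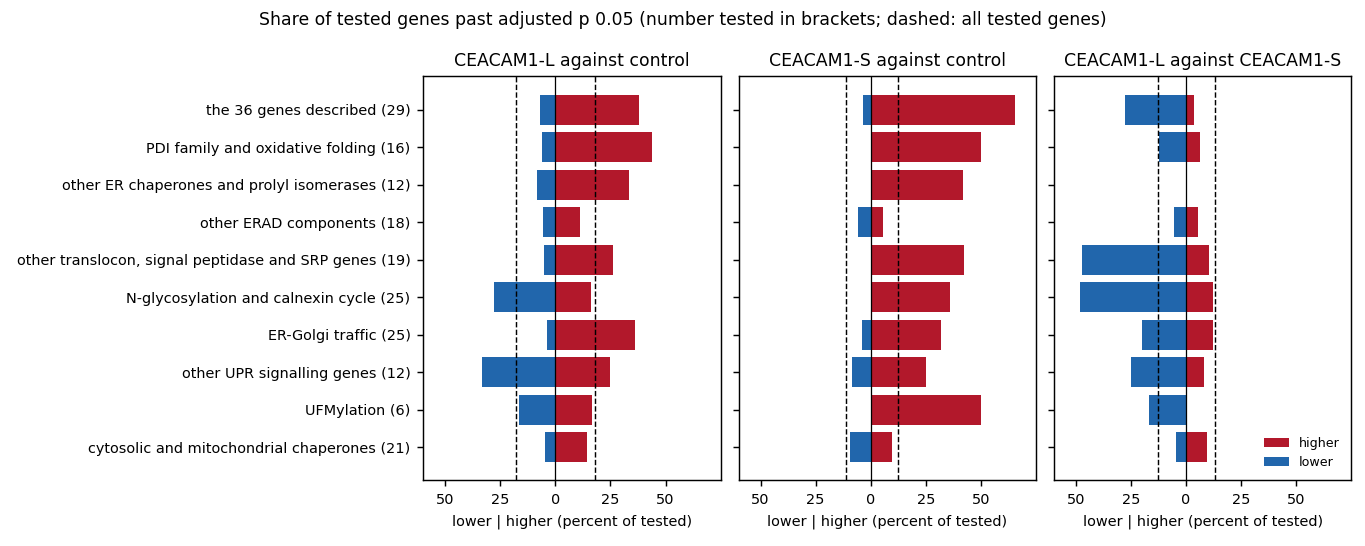
Percent of tested genes in each list that were lower (blue, to the left) or higher (red, to the right) at an adjusted p under 0.05, with the number tested in brackets and the shares of all tested genes as dashed lines. In CEACAM1-S against control the set described here has 19 of 29 higher, and in CEACAM1-L against CEACAM1-S the translocon and N-glycosylation lists have 9 of 19 and 12 of 25 lower.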

How the data were processed

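The genes and gene lists were chosen with earlier results of these data known. RNA of 12 samples was labelled with biotin and hybridised to Illumina mouse bead arrays, per the labels' protocols. The table the authors deposited gives, per the file headers, a non-normalized intensity and a detection p-value for every probe on every array. The deposited processed log2 values served as an alternative. The tool lumi 2.6.0 is listed in the submitters' processing notes with no role given. The number of arrays limits the precision.

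Intensities were corrected and quantile-normalized with neqc (normexp from the detection p-values, offset 16, then log2) in limma 3.58.1 with R 4.3.3. Probes with a detection p under 0.05 on at least 4 of 12 arrays were kept, 16330 of 45281. Of all probes, 34885 had 1 gene symbol in the platform annotation, 18 carried more than 1 and 10378 carried none. Each gene was read from its kept probe with the highest mean. All 3 groups entered 1 fit (9 residual degrees of freedom and 15.5 from the prior), moderated by eBayes with its trend option, and p-values were Benjamini-Hochberg adjusted over 9100 genes. The fit was also run on simulated data with independent noise for each gene. Those data had no structure shared between arrays, so the run cannot speak to how the calls depend on scaling.

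Values per array were given for Hspa5, Hsp90b1, Ern1, Eif2ak3, Atf6, Xbp1 and up to 6 higher and 6 lower genes per comparison with the largest passing difference, and up to 3 such genes were named per list. Promoters came from RefSeq (GRCm38.p6). Alternatives were other scaling, background, filters, probe choice, fits, array sets, a replicate block and leaving out arrays.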

Additional observations from a re-analysis of the deposited data

Results flagged for a closer look

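Of 87 groups of 4 arrays, 1 per tested gene and condition, 6 held an array that stood apart from the other 3 by more than a test for single outliers allows, and chance flags about 1 in 20 groups, or 4.35 of 87. Hspa5 read 5.51 log2 units on control replicate 1, its highest control array, and Ssr1 read 7.53 on the same array. Among the CEACAM1-S arrays, replicate 2 had the lowest Pdia3, at 12.01 log2 units, and the lowest Edem2, at 11.2. Fkbp2 was highest on CEACAM1-S replicate 1 among the arrays of its group, at 11.2 log2 units. Ostc was lowest on CEACAM1-L replicate 1 among the arrays of its group, at 11.7 log2 units.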

How the results depend on the processing

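The counts of passing genes among the 29 tested genes were 13, 20 and 9 for CEACAM1-L against control, CEACAM1-S against control and CEACAM1-L against CEACAM1-S, and 3290, 2148 and 2382 over all genes. Scaled to a common median they were 0, 4 and 0, and 637, 276 and 293 over all genes, with 252 higher and 385 lower in CEACAM1-L against control, against 1652 and 1638. Scaled to the 75th percentile, an alternative chosen after seeing the data, they were 8, 13 and 5, with 0 higher and 5 lower in CEACAM1-L against CEACAM1-S, against 1 and 8, and over all genes 1348 in CEACAM1-S against control and 1469 between the lines. The 6 arrays of set B alone gave 8, 10 and 4, and 1678, 893 and 677 over all genes, whereas the 6 arrays of set A alone gave 13, 19 and 13, and 3217, 1936 and 2573 over all genes. With the array set as a block the counts were 14, 23 and 10, and 3680, 2493 and 2768 over all genes, with Hspa5, P4hb and Edem1 added in CEACAM1-S against control. The sets came from the deviations of these same levels, so that block takes out spread by construction. Its added calls are therefore no independent support. In CEACAM1-S against control P4hb also passed without background correction, with the deposited values, with both stricter detection filters, with array weights and in set A. P4hb did not pass there with other scaling, in set B or with a replicate block. Hspa5 also passed in that comparison with array weights, and Edem1 with CEACAM1-L left out of the fit. Leaving out each array in turn gave 11 to 15, 16 to 20 and 6 to 9, and 2923 to 3350, 1774 to 2202 and 1937 to 2491 over all genes. No result turned its direction while passing under the alternatives run. Dim probes such as those of Hspa5, Hyou1 and Atf6, not detected on all arrays, limit what can be seen. The cause of these shifts was not tested.

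The replicate numbers gave no common pairing of the 3 groups. Over 12 pairs of same-numbered arrays the deviations from the group means correlated between -0.198 and 0.187, with 1 pair over 0.1. Pairs of CEACAM1-L with control were all positive, at 0.04 to 0.19, and pairs with CEACAM1-S were all negative. Set A held replicates 2 and 3 of CEACAM1-L and of control cells, but replicates 1 and 4 of CEACAM1-S. With the replicate number as a block the counts were 12, 20 and 7, and 3154, 1972 and 2250 over all genes.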
